A study of Homo sapiens with 12 samples.

Results

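The 35 genes described here make cholesterol and fatty acids, or sense and export sterols. They were chosen by name, together with a level of at least 0.5 RPKM (reads in a gene, divided by its length in kilobases and by the library total) in at least 3 of the 12 libraries of the study. All 35 met this limit, out of 26439 genes in the deposited table, of which 14202 met the same limit and were tested. In 34 members the limit was met in all 12 libraries. ABCA1 met it only through the 3 LNCaP-EnzR shCXCR7 libraries, so for this gene the limit itself asked for a high value in those cells.

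The study knocked down the chemokine receptor CXCR7 to find the genes that depend on it in advanced prostate cancer cells. By the labels, RNA was sequenced from 4 groups of 3 libraries each, namely LNCaP-EnzR cells with a hairpin against CXCR7 (shCXCR7), LNCaP-EnzR cells with the control vector (LKO), C4-2B-EnzR cells with shCXCR7 and C4-2B-EnzR cells with LKO. LNCaP is an androgen-responsive line from a lymph node metastasis, C4-2B is a castration-resistant derivative of it, and both had become resistant to the androgen receptor antagonist enzalutamide after long exposure (MDVr in the labels). All cells carried a lentiviral vector, RNA was taken 4 days after infection, and the medium held 2 µM enzalutamide for LNCaP-EnzR and 10 µM for C4-2B-EnzR cells, so the line and the dose cannot be told apart. The labels also carry a P number, which may be the passage. It differs between the lines and cannot be told apart from them either. Each line is 1 resistant derivative, and which of the hairpins named by the study was sequenced could not be found in the labels or methods. The published text speaks of duplicates for C4-2B-EnzR cells, and the libraries in the labels were all used. The labels do not tie replicates to separate cultures, and p-values then measure a spread that may be technical.

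Cells build cholesterol from acetyl-CoA through the mevalonate pathway, squalene and a chain of sterol intermediates, and build fatty acids from the same acetyl-CoA. Both are driven by membrane-bound transcription factors, encoded by SREBF2, which acts mainly on sterol genes, and SREBF1, whose shorter product acts mainly on fatty acid genes. When sterols are low these factors leave the endoplasmic reticulum and are cut free by a pair of Golgi proteases, and when sterols are high the INSIG proteins hold them back, while the sterol-activated LXR receptors turn on export. Androgen is known to raise this programme in LNCaP cells, and prostate tumours are known for a high rate of lipid synthesis.

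The promoter sequences below are those of the 3 members whose window, from 250 bases before to 50 bases after the RefSeq start of the gene, holds a core of the sterol regulatory element (TCACNCCA on either strand). They are shown because the same core stands in a gene that fell in both lines (SREBF2), a gene that rose in both lines (MVK) and a gene that fell in LNCaP-EnzR cells only by the test of each line (MSMO1, whose response differed between the lines). The sequences are from RefSeq on GRCh38.p14, written 5′ to 3′ on the + strand of each gene, and the capitals mark the core and the NF-Y motif CCAAT or its reverse complement ATTGG, none of which overlap here. For MVK this start lies inside the gene as GENCODE 44 draws it, whose first transcripts begin further upstream.
SREBF2, chr22:41832855-41833154: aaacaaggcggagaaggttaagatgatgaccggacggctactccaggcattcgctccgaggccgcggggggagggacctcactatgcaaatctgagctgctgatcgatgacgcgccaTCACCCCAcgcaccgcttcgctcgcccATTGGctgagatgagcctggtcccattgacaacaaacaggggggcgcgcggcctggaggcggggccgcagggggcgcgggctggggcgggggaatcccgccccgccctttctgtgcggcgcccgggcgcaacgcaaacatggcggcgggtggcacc
MVK, chr12:109573544-109573843: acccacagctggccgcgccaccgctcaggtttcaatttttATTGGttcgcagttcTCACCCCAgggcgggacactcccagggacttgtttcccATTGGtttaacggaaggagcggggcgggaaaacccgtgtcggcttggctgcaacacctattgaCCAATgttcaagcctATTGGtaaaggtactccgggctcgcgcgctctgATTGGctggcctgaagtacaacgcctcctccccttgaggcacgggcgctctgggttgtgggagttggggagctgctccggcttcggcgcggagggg
MSMO1, chr4:165327419-165327718: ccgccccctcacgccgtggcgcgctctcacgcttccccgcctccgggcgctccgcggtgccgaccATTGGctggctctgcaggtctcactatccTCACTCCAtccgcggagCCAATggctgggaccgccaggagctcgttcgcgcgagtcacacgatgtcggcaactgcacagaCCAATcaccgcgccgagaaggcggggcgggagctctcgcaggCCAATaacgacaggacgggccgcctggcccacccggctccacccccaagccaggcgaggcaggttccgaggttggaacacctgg

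Of the 35 members, 30 had a promoter window in the RefSeq table. The core was found in 3 of them (10.0%), against 4.67% of 9997 tested genes with a window and 3.95% of all 35116 windows. CCAAT, searched on both strands, was found in 22 of the 30 members (73.3%), against 43.1% of tested genes, and the Sp1 motif GGGCGG in 28 (93.3%), against 76.5%. These matches describe the letters in the windows only. SREBF2, which fell, and MVK, which rose, both hold TCACCCCA.

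The hairpin was checked on CXCR7 itself, whose gene symbol is ACKR3. Rescaled within the line, it stood at 55.9, 50.6 and 41.6 RPKM in LNCaP-EnzR shCXCR7 libraries, against 122.5, 117.4 and 111.3 RPKM in LKO libraries. The C4-2B-EnzR libraries gave 22.3, 23.7 and 19.0 RPKM with shCXCR7, against 84.1, 86.8 and 85.9 RPKM with LKO. The groups did not overlap in either line (p = 0.1 for either line by an exact permutation test, 2-sided, which cannot go lower with 3 libraries a group).

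One library stood apart from the rest. LNCaP-EnzR shCXCR7 replicate 3 listed 1636 genes at 0, against 8719 to 9652 in the other 11 libraries, and all its RPKM together came to 104626, against 243937 to 281912. Once rescaled, its ratio to the mean of the other shCXCR7 libraries of the line had a median of 1.83 for genes at 0.5 to 1 RPKM, 0.97 at 3 to 10 RPKM and 0.80 above 100 RPKM, so its high genes read low. Counts of all LNCaP-EnzR members called are therefore given with and without this library. For smaller sets of members, those whose call it changed are named. Single members are given without it where that changed a call, and counts of groups without overlap include it. Without it 21 of the 21 members called in LNCaP-EnzR cells were called in the same direction, with shifts of the log2 fold change of up to 0.12 and adjusted p up to 0.0447. Reads in genes, computed back from the RPKM steps, ranged from 6380395 to 9831807 per library, and apart from ABCA1 and STARD4 each member had between 114 and 17357 reads in every library. Markers of luminal prostate cells were all expressed, with 9 of 9 tested and summed deposited RPKM of 243.9 to 712.2 with shCXCR7 and 697.3 to 718.9 with LKO in LNCaP-EnzR, and 650.0 to 683.6 with shCXCR7 and 818.3 to 846.3 with LKO in C4-2B-EnzR cells. None of the basal, blood or adipocyte markers passed the limit, and summed neuroendocrine markers stood at 5.07 to 8.76 RPKM with shCXCR7, against 13.4 to 16.2 with LKO, for LNCaP-EnzR and at 15.3 to 16.9 with shCXCR7, against 19.7 to 21.7 with LKO, for C4-2B-EnzR cells. All these sums are of RPKM as deposited. The LNCaP-EnzR shCXCR7 ranges thus include the low scale of replicate 3 (scaling factor 0.500, against 1.105 to 1.203 in the other libraries of the line). The part of these markers in the results on lipid genes was not tested, and in bulk RNA fewer cells of a type and less RNA per cell cannot be told apart.

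The members did not move as 1 block after CXCR7 knockdown. In LNCaP-EnzR cells 7 of the 35 rose (20.0%, against 16.8% of all genes tested) and 14 fell (19.1% of all genes), at an adjusted p under 0.05 from limma. Without LNCaP-EnzR shCXCR7 replicate 3, 12 rose (34.3%, against 20.2% of all genes) and 14 fell (20.8% of all genes), and the additions were ABCA1, ELOVL5, FDPS, IDI1 and TM7SF2. The limit on low values favoured a rise of ABCA1, and 11 of the other 34 rose (32.4%). The split moved with the scaling, to 14 higher and 14 lower by quantile normalization and to 12 higher and 14 lower with background subtracted from that library. In C4-2B-EnzR cells 9 rose (25.7%, against 19.4% of all genes) and 8 fell (22.9%, against 19.5%), shares near those of all genes, or 9 and 5 on RPKM as deposited. The median log2 fold change of the members was 0.00 for LNCaP-EnzR and -0.04 for C4-2B-EnzR cells, against 0.03 and 0.00 for all genes tested. At 1.5-fold or more, 2 rose and 4 fell in LNCaP-EnzR cells (7.67% and 7.57% of all genes), or 2 and 3 without shCXCR7 replicate 3 (8.22% and 9.14%), when ACACA was at -0.58, and 3 rose and 2 fell in C4-2B-EnzR cells (8.51% and 9.37%). In LNCaP-EnzR cells libraries with shCXCR7 lay wholly above the LKO libraries for 10 members (28.6%, against 24.7% of all genes), ABCA1 among them. They lay wholly below for 17 (48.6%, against 24.5%). In C4-2B-EnzR cells these were 11 and 11 (31.4% each, against 26.6% and 26.0%).

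**Figure D1:**
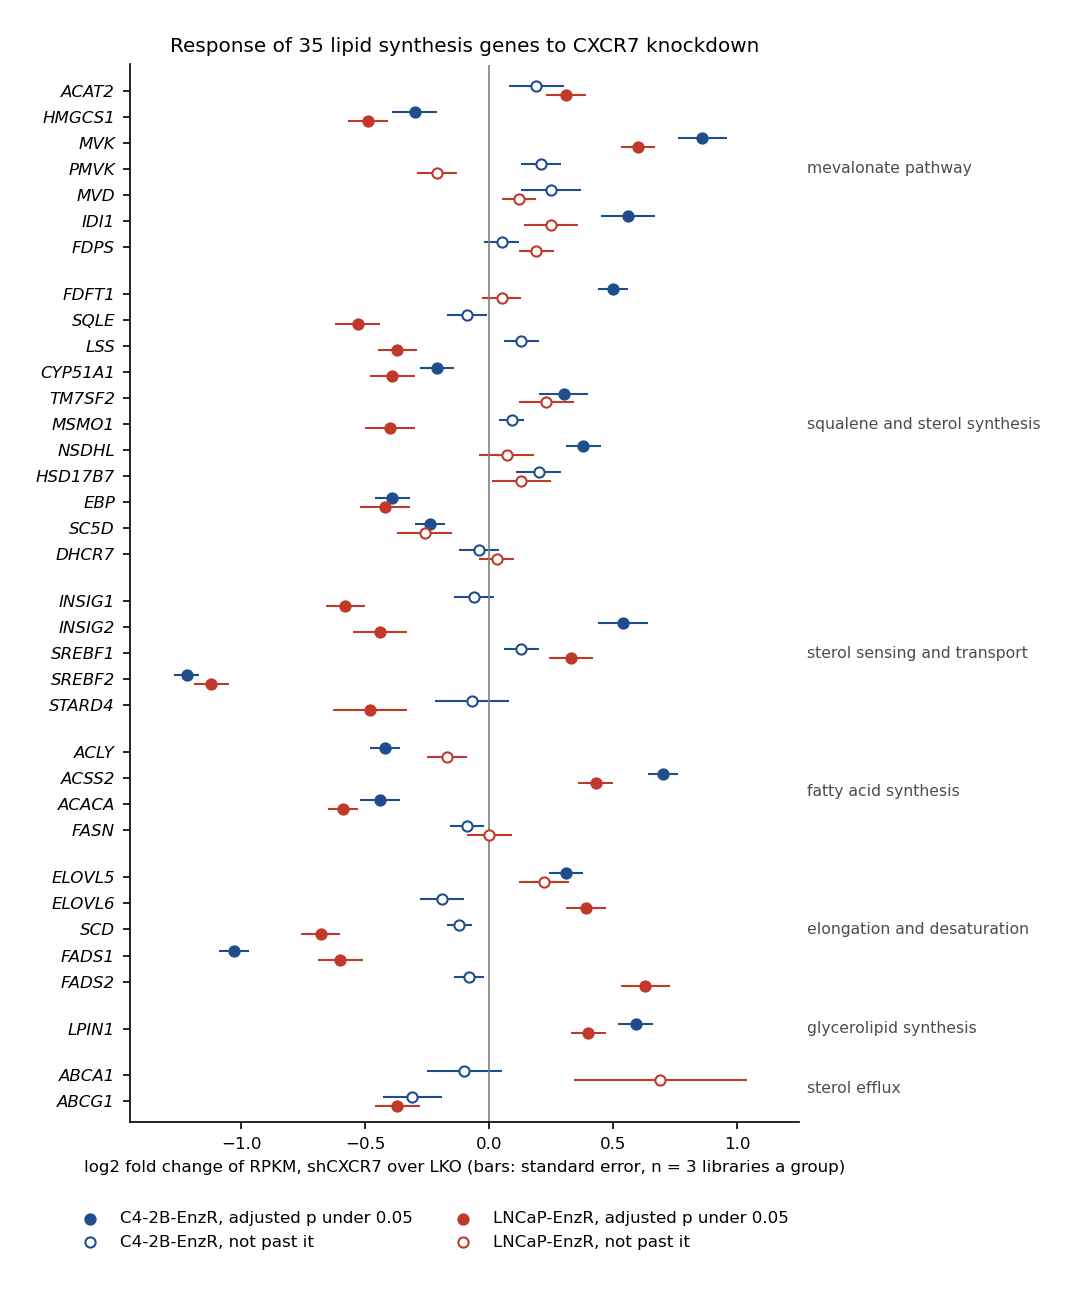
Log2 fold change of RPKM, shCXCR7 over LKO, for each of the 35 members, in C4-2B-EnzR (blue, upper point of each pair) and LNCaP-EnzR cells (red, lower point), grouped by role, with bars for the standard error and filled points for an adjusted p under 0.05. SREBF2 lies furthest left in both lines (-1.22 in C4-2B-EnzR and -1.12 in LNCaP-EnzR), MVK is to the right in both (0.86 and 0.60), and INSIG2 is on opposite sides of 0 (0.54 and -0.44).

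SREBF2 had the largest fall of any member in both lines. It lies on chromosome 22 (41833105 to 41907305, + strand, GENCODE 44 on GRCh38). It stood at 9.66, 9.86 and 8.94 RPKM in LNCaP-EnzR shCXCR7 libraries, against 22.0, 20.5 and 20.3 RPKM in LKO libraries. For C4-2B-EnzR cells the values were 18.9, 19.4 and 19.5 RPKM with shCXCR7, against 47.6, 44.7 and 43.8 RPKM with LKO. No shCXCR7 library reached the level of any LKO library of its line, and the means were 46.0% of LKO for LNCaP-EnzR and 42.8% of LKO for C4-2B-EnzR cells on the fitted scale. The log2 fold change was -1.12 (standard error 0.07, adjusted p = 1.52e-05) for LNCaP-EnzR and -1.22 (standard error 0.05, adjusted p = 1.08e-04) for C4-2B-EnzR cells, and without LNCaP-EnzR shCXCR7 replicate 3 the first was -1.08. The difference between the lines, -0.10 (standard error 0.09), did not pass the test. An antisense gene, SREBF2-AS1, shares 9.08% of its exon bases in GENCODE 44, and the counting is not stated to use strand.

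SREBF1, on chromosome 17, did not follow. It stood at 118.5, 127.2 and 109.6 RPKM with shCXCR7 in LNCaP-EnzR cells, against 94.6, 93.2 and 94.7 RPKM with LKO, and these groups did not overlap. Its C4-2B-EnzR levels were 174.4, 169.1 and 166.6 RPKM with shCXCR7, against 170.3, 147.0 and 150.9 RPKM with LKO, and these did. The LNCaP-EnzR rise of 0.33 (standard error 0.09, adjusted p = 0.0184) passed the test with all 6 libraries and without shCXCR7 replicate 3 (0.38, adjusted p = 0.00313). It did not pass without any 1 of the other 5 libraries (adjusted p = 0.0617 to 0.0889), and on values as deposited the fold change was -0.01. The response in C4-2B-EnzR cells was 0.13 (adjusted p = 0.210), or past the threshold without LKO replicate 1 (adjusted p = 0.0319).

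Within a library the ratio of both factors does not depend on the scaling factor. In LNCaP-EnzR shCXCR7 replicate 3, whose high genes read low, the ratio may still be shifted. SREBF1 over SREBF2 was 12.3, 12.9 and 12.3 in LNCaP-EnzR shCXCR7 libraries, against 4.29, 4.55 and 4.67 in LKO libraries. In C4-2B-EnzR cells it was 9.23, 8.73 and 8.52 with shCXCR7, against 3.58, 3.29 and 3.45 with LKO. The balance of the 2 mRNAs thus moved toward SREBF1 in every shCXCR7 library of both lines.

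**Figure D2:**
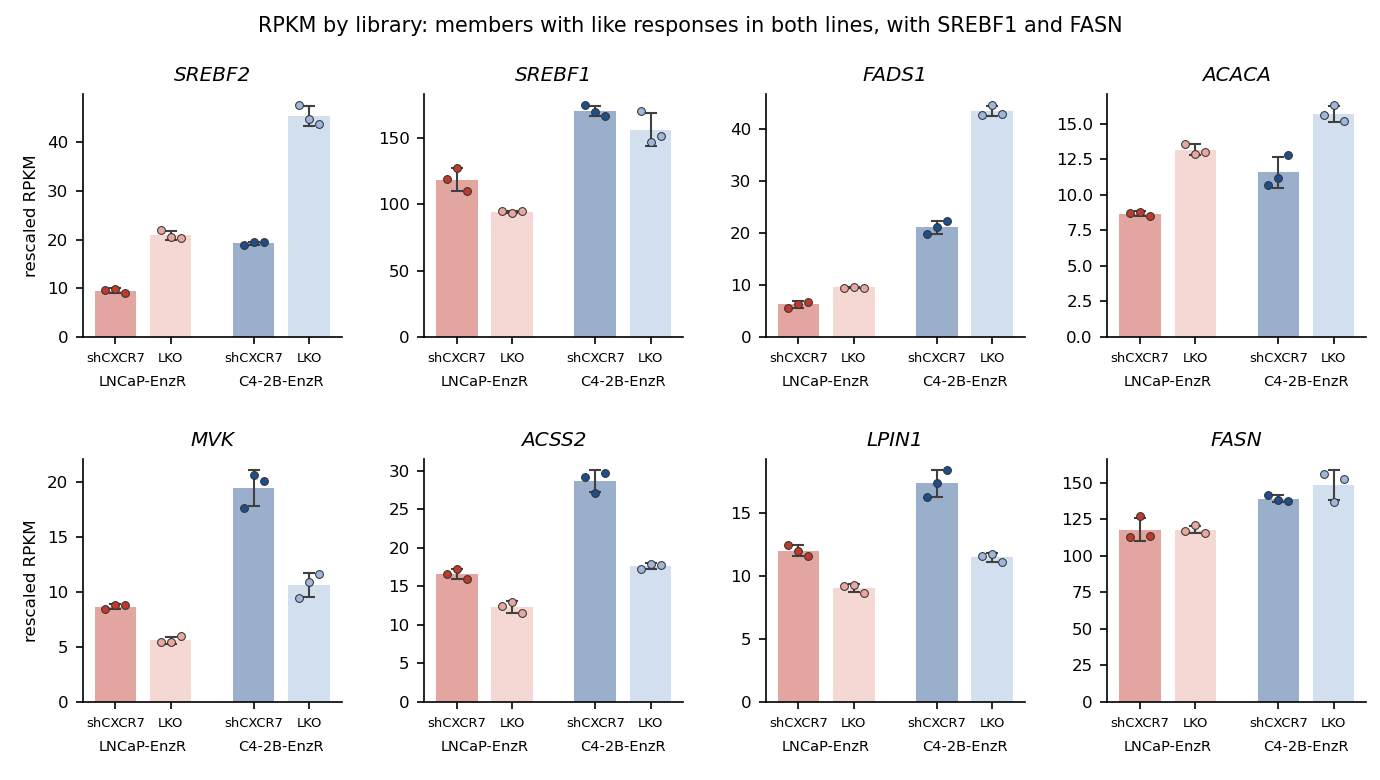
Rescaled RPKM by library for SREBF2, SREBF1, FADS1, ACACA, MVK, ACSS2, LPIN1 and FASN, with shCXCR7 left of LKO in each line (points, libraries; bars, means; error bars, SD, n = 3). SREBF2 is lower with shCXCR7 in both lines (means of 9.48 RPKM with shCXCR7 against 20.9 RPKM with LKO in LNCaP-EnzR and 19.3 RPKM with shCXCR7 against 45.4 RPKM with LKO in C4-2B-EnzR), MVK, ACSS2 and LPIN1 are higher in both, and FASN overlaps between groups in both.

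The INSIG genes, whose proteins retain the SREBP factors in the endoplasmic reticulum, responded differently in each line. INSIG1 stood at 14.9, 13.5 and 12.9 RPKM in LNCaP-EnzR shCXCR7 libraries, against 21.5, 20.1 and 20.3 RPKM with LKO, and at 47.8, 53.2 and 48.5 RPKM in C4-2B-EnzR shCXCR7 libraries, against 47.7, 52.5 and 55.5 RPKM with LKO. It fell in LNCaP-EnzR cells (-0.58, adjusted p = 5.46e-04, standard error 0.08), whereas in C4-2B-EnzR cells the groups overlapped (-0.06, standard error 0.08). INSIG2 stood at 25.1, 22.5 and 18.6 RPKM with shCXCR7 in LNCaP-EnzR cells, against 29.0, 27.8 and 32.5 RPKM with LKO. Among C4-2B-EnzR libraries it measured 15.7, 17.9 and 18.3 RPKM with shCXCR7, against 11.2, 13.5 and 10.8 RPKM with LKO. INSIG2 was the 1 member called in opposite directions, lower in LNCaP-EnzR (-0.44, standard error 0.11, adjusted p = 0.0166) and higher in C4-2B-EnzR cells (0.54, standard error 0.10, adjusted p = 0.00816), as were 0.690% of all genes. The fall in LNCaP-EnzR cells did not pass the test without LKO replicate 3 (-0.37, adjusted p = 0.0674), and was -0.32 (adjusted p = 0.0386) without shCXCR7 replicate 3.

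STARD4, a soluble carrier of cholesterol between membranes, stood at 1.47, 1.09 and 1.39 RPKM in LNCaP-EnzR shCXCR7 libraries, against 2.05, 1.80 and 1.93 RPKM with LKO, the second lowest member by level. Its fall in this line (-0.48, standard error 0.15, adjusted p = 0.0378) was lost without any 1 of 4 of the 6 libraries (LKO 1, LKO 2, LKO 3 or shCXCR7 2, adjusted p = 0.0875 to 0.125). In C4-2B-EnzR cells it was -0.07 (standard error 0.15).

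Among 11 tested genes that process the SREBP factors or degrade sterol-regulated proteins, 2 rose and 4 fell in each line (2 and 3 in LNCaP-EnzR without shCXCR7 replicate 3). Of all genes 16.8% rose and 19.1% fell for LNCaP-EnzR, and 19.4% and 19.5% for C4-2B-EnzR cells. The 11 genes had medians of -0.04 for LNCaP-EnzR and -0.07 for C4-2B-EnzR cells. Among the falls was MBTPS2, the membrane protease that makes the second of the cuts that free the factors. MBTPS2 stood at 2.28, 2.58 and 2.28 RPKM in LNCaP-EnzR shCXCR7 libraries, against 11.3, 9.65 and 8.92 RPKM with LKO. Values in C4-2B-EnzR cells were 3.19, 2.58 and 3.48 RPKM with shCXCR7, against 12.6, 13.9 and 12.9 RPKM with LKO, a wide gap in both lines. The log2 fold change was -1.95 (standard error 0.11, adjusted p = 9.26e-06) for LNCaP-EnzR and -2.01 (standard error 0.12, adjusted p = 1.52e-04) for C4-2B-EnzR cells. MBTPS1, which makes the first cut, also fell (-0.29 for LNCaP-EnzR and -0.25 for C4-2B-EnzR cells). FAF2, a factor of protein degradation at the endoplasmic reticulum, rose by 0.40 and 0.23 in these lines.

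Of the 7 members of the mevalonate pathway, 2 rose and 1 fell in each line. The shares of all genes were 16.8% and 19.1% for LNCaP-EnzR and 19.4% and 19.5% for C4-2B-EnzR cells. The 7 members had medians of 0.19 for LNCaP-EnzR and 0.21 for C4-2B-EnzR cells. Without LNCaP-EnzR shCXCR7 replicate 3, IDI1 and FDPS were also called higher in that line, where 20.2% of all genes then rose. MVK, mevalonate kinase, rose most. It stood at 8.40, 8.78 and 8.78 RPKM in LNCaP-EnzR shCXCR7 libraries, against 5.44, 5.44 and 5.98 RPKM with LKO. The C4-2B-EnzR libraries gave 17.6, 20.6 and 20.1 RPKM with shCXCR7, against 9.42, 10.9 and 11.6 RPKM with LKO. The groups were apart in both lines, with log2 fold changes of 0.60 (standard error 0.07, adjusted p = 4.18e-04) for LNCaP-EnzR and 0.86 (standard error 0.10, adjusted p = 0.00134) for C4-2B-EnzR cells. MVK lies on chromosome 12 (109573272 to 109598125, + strand), head to head with MMAB, which shares 2.5% of its exon bases.

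HMGCS1, the synthase that begins the pathway's committed steps, fell in both lines. Its values were 8.18, 7.63 and 7.28 RPKM with shCXCR7 in LNCaP-EnzR cells, against 11.7, 10.1 and 11.1 RPKM with LKO (-0.49, standard error 0.08, adjusted p = 0.00186). In C4-2B-EnzR cells the fall (-0.30, standard error 0.09, adjusted p = 0.0431) was lost without any 1 library other than LKO replicate 1 (adjusted p = 0.0556 to 0.125). IDI1, the isomerase that makes the reactive isoprene unit, stood at 37.8, 38.8 and 36.1 RPKM with shCXCR7 in C4-2B-EnzR cells, against 21.6, 25.9 and 29.3 RPKM with LKO, and rose by 0.56 (standard error 0.11, adjusted p = 0.00898). In LNCaP-EnzR cells IDI1 was 0.25 (adjusted p = 0.108), or 0.38 (adjusted p = 0.00782) without shCXCR7 replicate 3. FDPS, which makes farnesyl diphosphate, was 0.19 (adjusted p = 0.0630), or 0.22 (adjusted p = 0.0258) without that library, and 0.05 in C4-2B-EnzR cells. ACAT2, which joins acetyl-CoA units in the cytosol, rose in LNCaP-EnzR cells (0.31, adjusted p = 0.0179). It was not past the threshold without LKO 2, LKO 3 or shCXCR7 1 (adjusted p = 0.0509 to 0.0776), and was -0.01 on values as deposited. PMVK and MVD, the phosphomevalonate kinase and the decarboxylase after it, did not pass the test in either line with all libraries, at -0.21 and 0.12 for LNCaP-EnzR and 0.21 and 0.25 for C4-2B-EnzR cells. In C4-2B-EnzR cells MVD passed without LKO replicate 1 (adjusted p = 0.00812) and PMVK without LKO replicate 3 (adjusted p = 0.0357). Exon bases are shared with other genes on HMGCS1 (37.7%), FDPS (18.6%), ACAT2 (17.2%) and IDI1 (15.0%), so their reads may be split or joined in the counting.

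Of the 11 members that turn farnesyl diphosphate into cholesterol, 5 fell in LNCaP-EnzR cells (SQLE, LSS, CYP51A1, MSMO1 and EBP, median of the 11 -0.26) and none rose, against 19.1% and 16.8% of all genes. At an unadjusted p under 0.05 SC5D joined the falls and none rose, as with voom. The absence of rises depended on the scaling, since FDFT1, TM7SF2 and DHCR7 rose by quantile normalization, and TM7SF2 with background subtracted, with factors from genes at 10 RPKM or more or without shCXCR7 replicate 3. In C4-2B-EnzR cells 3 rose (FDFT1, NSDHL and TM7SF2) and 3 fell (CYP51A1, EBP and SC5D), against 19.4% and 19.5% of all genes, with a median of 0.09. FDFT1, squalene synthase at the branch to sterols, stood at 70.5, 69.1 and 66.8 RPKM with shCXCR7 in C4-2B-EnzR cells, against 45.4, 48.9 and 51.6 RPKM with LKO (0.50, standard error 0.06, adjusted p = 0.00178). In LNCaP-EnzR cells its groups overlapped, at 33.1, 34.1 and 29.0 RPKM with shCXCR7 and 29.8, 31.4 and 31.5 RPKM with LKO (0.05, standard error 0.08).

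SQLE, squalene epoxidase, which catalyses a rate-limiting step, stood at 12, 9.77 and 9.85 RPKM with shCXCR7 in LNCaP-EnzR cells, against 15.3, 15.2 and 15.3 RPKM with LKO (-0.53, standard error 0.09, adjusted p = 0.00204). LSS, which closes the sterol rings, stood at 3.74, 3.96 and 3.91 RPKM with shCXCR7, against 4.92, 5.11 and 5.23 RPKM with LKO (-0.37, standard error 0.08, adjusted p = 0.00699). Neither passed the test in C4-2B-EnzR cells with all libraries, at -0.09 for SQLE and 0.13 for LSS, and LSS passed without LKO replicate 1 (adjusted p = 0.0493). MSMO1, which oxidises the methyl groups of early sterols, fell in LNCaP-EnzR cells (-0.40, adjusted p = 0.0162, or 0.0654 without LKO replicate 1) and was 0.09 in C4-2B-EnzR cells.

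CYP51A1, lanosterol demethylase, and EBP, a sterol isomerase, fell in both lines, by 0.39 and 0.42 for LNCaP-EnzR and by 0.21 and 0.39 for C4-2B-EnzR cells on the log2 scale. EBP stood at 36.4, 38.8 and 36.0 RPKM with shCXCR7 in C4-2B-EnzR cells, against 48.2, 45.5 and 52.0 RPKM with LKO, with no overlap. The fall of CYP51A1 in C4-2B-EnzR cells was at the threshold (adjusted p = 0.0498) and was lost without any 1 library other than LKO replicate 1 (adjusted p = 0.0972 to 0.139). CYP51A1 shares 68.2% and EBP 36.4% of exon bases with another gene on the same strand in GENCODE 44, so both are uncertain. SC5D, a late sterol desaturase, fell in C4-2B-EnzR cells (-0.24, adjusted p = 0.0239), a call lost without LKO 2 or any 1 of the shCXCR7 libraries (adjusted p = 0.0539 to 0.0777), and was -0.26 (adjusted p = 0.0879) in LNCaP-EnzR cells, or past the threshold without shCXCR7 replicate 1 (adjusted p = 0.0459).

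NSDHL, which removes carboxyl groups from early sterols, rose in C4-2B-EnzR cells (0.38, standard error 0.07, adjusted p = 0.00863) and was 0.07 in LNCaP-EnzR cells. TM7SF2, a sterol reductase and the most abundant of the 11, stood at 251.5, 247.9 and 252.2 RPKM with shCXCR7 in C4-2B-EnzR cells, against 232.5, 197.4 and 182.1 RPKM with LKO. Its rise (0.30, adjusted p = 0.0456) was lost without any 1 library other than LKO replicate 1 (adjusted p = 0.0872 to 0.134), and in LNCaP-EnzR cells it was 0.23 (adjusted p = 0.153), or 0.32 (adjusted p = 0.0145) without shCXCR7 replicate 3. HSD17B7 and DHCR7, a keto-sterol reductase and the reductase of the last step to cholesterol on 1 branch, passed in neither line, with log2 fold changes of 0.13 and 0.03 for LNCaP-EnzR and 0.20 and -0.04 for C4-2B-EnzR cells.

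Of the 4 members of fatty acid synthesis, 1 rose and 1 fell in LNCaP-EnzR, and 1 rose and 2 fell in C4-2B-EnzR cells. Among all genes tested, the shares called higher and lower were 16.8% and 19.1% for LNCaP-EnzR and 19.4% and 19.5% for C4-2B-EnzR. ACSS2, which makes acetyl-CoA from acetate, rose in both lines. It stood at 16.6, 17.2 and 16.0 RPKM with shCXCR7 in LNCaP-EnzR cells, against 12.4, 13 and 11.5 RPKM with LKO (0.43, standard error 0.07, adjusted p = 0.00212). For C4-2B-EnzR cells the values were 29.2, 27.1 and 29.7 RPKM with shCXCR7, against 17.2, 17.9 and 17.7 RPKM with LKO (0.70, standard error 0.06, adjusted p = 4.12e-04). ACLY, which makes acetyl-CoA from citrate, stood at 68.6, 70.7 and 71.1 RPKM with shCXCR7 in C4-2B-EnzR cells, against 87.0, 97.0 and 97.6 RPKM with LKO, and fell (-0.42, standard error 0.06, adjusted p = 0.00331). In LNCaP-EnzR cells ACLY was -0.17 (adjusted p = 0.154). The ratio of ACSS2 to ACLY within a library was 0.244, 0.238 and 0.259 with shCXCR7 in LNCaP-EnzR cells, against 0.161, 0.176 and 0.151 with LKO. In C4-2B-EnzR cells it was 0.426, 0.384 and 0.418 with shCXCR7, against 0.198, 0.185 and 0.181 with LKO, so it was higher in all 6 shCXCR7 libraries than in any LKO library.

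ACACA, acetyl-CoA carboxylase, which makes the malonyl-CoA used by the synthase, fell in both lines. It stood at 8.73, 8.81 and 8.48 RPKM with shCXCR7 in LNCaP-EnzR cells, against 13.6, 12.9 and 13 RPKM with LKO (-0.59, standard error 0.06, adjusted p = 2.05e-04). Its C4-2B-EnzR levels were 10.7, 11.2 and 12.8 RPKM with shCXCR7, against 15.6, 16.3 and 15.2 RPKM with LKO (-0.44, standard error 0.08, adjusted p = 0.00720). The groups did not overlap in either line. FASN, fatty acid synthase itself, was among the members with the most reads (10433 to 17357 per library) and did not pass the test in either line. It stood at 112.7, 126.9 and 113.6 RPKM with shCXCR7 in LNCaP-EnzR cells, against 117.2, 120.7 and 115.6 RPKM with LKO, and at 141.8, 137.9 and 137.5 RPKM with shCXCR7 in C4-2B-EnzR cells, against 155.9, 136.6 and 152.2 RPKM with LKO. The log2 fold changes were 0.00 (standard error 0.09) and -0.09 (standard error 0.07).

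In 16 other tested genes of fatty acid synthesis and elongation, 3 rose and 4 fell for LNCaP-EnzR cells, against 16.8% and 19.1% of all genes. For C4-2B-EnzR cells 4 rose and 3 fell, against 19.4% and 19.5%. HACD2, a dehydratase of the elongation cycle, stood at 5.16, 5.26 and 4.54 RPKM with shCXCR7 in LNCaP-EnzR cells, against 13.4, 11.2 and 10.5 RPKM with LKO (-1.19, adjusted p = 7.34e-05). Among C4-2B-EnzR libraries it measured 16.6, 18.6 and 17.2 RPKM with shCXCR7, against 35.5, 50.7 and 49.4 RPKM with LKO (-1.34, adjusted p = 9.22e-04). HSD17B12, a reductase of the same cycle, fell by 0.70 for LNCaP-EnzR and by 0.43 for C4-2B-EnzR cells, while ME1, malic enzyme, a source of NADPH, rose by 0.71 and 0.73.

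Of the 5 members of elongation and desaturation, 2 rose and 2 fell in LNCaP-EnzR, and 1 rose and 1 fell in C4-2B-EnzR cells. The matching shares over all genes were 16.8% higher and 19.1% lower for LNCaP-EnzR, and 19.4% and 19.5% for C4-2B-EnzR. FADS1 and FADS2 act on polyunsaturated fatty acids, FADS2 before FADS1, and are neighbours on chromosome 11 on opposite strands (FADS1 from 61799627 to 61817003 and FADS2 from 61816203 to 61867354). FADS1 stood at 5.54, 6.38 and 6.79 RPKM with shCXCR7 in LNCaP-EnzR cells, against 9.46, 9.67 and 9.43 RPKM with LKO. Values in C4-2B-EnzR cells were 19.8, 21.2 and 22.3 RPKM with shCXCR7, against 42.7, 44.5 and 42.9 RPKM with LKO, again with no overlap. It fell by 0.60 (standard error 0.09, adjusted p = 0.00101) for LNCaP-EnzR and by 1.03 (standard error 0.06, adjusted p = 1.52e-04) for C4-2B-EnzR cells.

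FADS2 rose in LNCaP-EnzR cells, with 105.3, 114.6 and 92.4 RPKM with shCXCR7, against 70, 64.7 and 66.6 RPKM with LKO (0.63, standard error 0.10, adjusted p = 0.00135). In C4-2B-EnzR cells, at 241.3, 238.8 and 253.6 RPKM with shCXCR7 and 267.2, 248.0 and 258.5 RPKM with LKO, the groups overlapped (-0.08, standard error 0.06). FADS2 over FADS1 was 19.0, 18.0 and 13.6 within LNCaP-EnzR shCXCR7 libraries, against 7.40, 6.70 and 7.06 with LKO. The 13.6 was that of replicate 3, whose high genes read low, which a ratio within the library does not remove. C4-2B-EnzR shCXCR7 libraries gave 12.2, 11.3 and 11.4, against 6.26, 5.58 and 6.02 with LKO. The ratio was thus higher with shCXCR7 in both lines, through both genes for LNCaP-EnzR and through FADS1 for C4-2B-EnzR cells. Their exons share 4.79% of FADS1 and 4.64% of FADS2 bases, where reads cannot be told apart without strand.

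SCD, which makes oleate from stearate, stood at 42.5, 40.8 and 36.5 RPKM with shCXCR7 in LNCaP-EnzR cells, against 66.3, 61.4 and 65.1 RPKM with LKO (-0.68, standard error 0.08, adjusted p = 3.30e-04). The C4-2B-EnzR libraries gave 101.0, 98.5 and 104.0 RPKM with shCXCR7, against 106.4, 111.6 and 111.1 RPKM with LKO. These groups did not overlap either, but the change of -0.12 (standard error 0.05, adjusted p = 0.123) did not pass the test. ELOVL6, which extends saturated and monounsaturated chains, rose in LNCaP-EnzR cells to 29.4, 30 and 25.4 RPKM with shCXCR7, against 22.4, 20.4 and 21.9 RPKM with LKO (0.39, standard error 0.08, adjusted p = 0.00689), and was -0.19 (adjusted p = 0.127) in C4-2B-EnzR cells. ELOVL5, which extends polyunsaturated chains, rose in C4-2B-EnzR cells (0.31, standard error 0.07, adjusted p = 0.0130). In LNCaP-EnzR cells it was 0.22 (adjusted p = 0.123), or 0.33 (adjusted p = 0.0106) without shCXCR7 replicate 3.

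**Figure D3:**
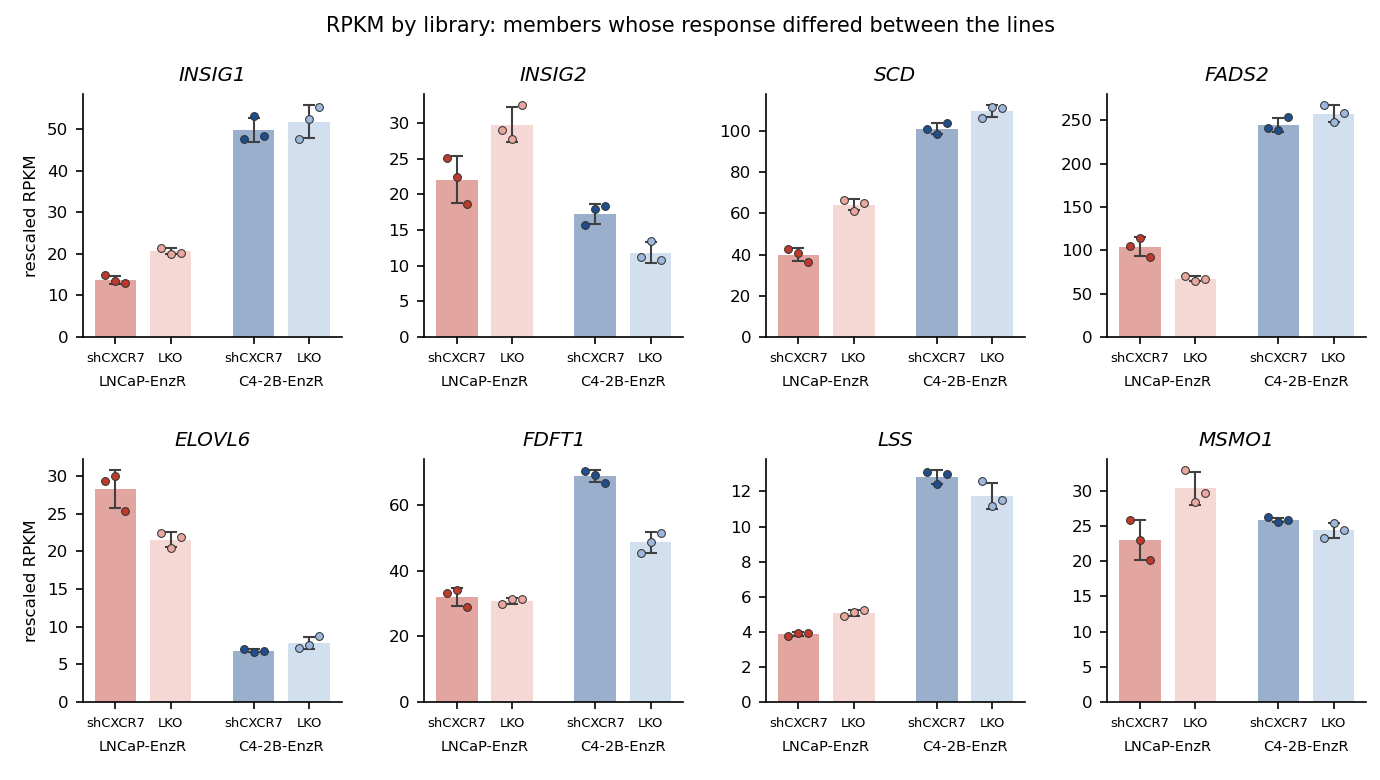
Rescaled RPKM by library for INSIG1, INSIG2, SCD, FADS2, ELOVL6, FDFT1, LSS and MSMO1, with shCXCR7 left of LKO in each line (points, libraries; bars, means; error bars, SD, n = 3). FADS2 averaged 104.1 RPKM with shCXCR7 against 67.1 RPKM with LKO for LNCaP-EnzR and 244.6 RPKM with shCXCR7 against 257.9 RPKM with LKO for C4-2B-EnzR cells. INSIG2 averaged 22.1 RPKM with shCXCR7 against 29.8 RPKM with LKO for LNCaP-EnzR and 17.3 RPKM with shCXCR7 against 11.8 RPKM with LKO for C4-2B-EnzR cells.

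LPIN1, the phosphatase that makes diacylglycerol for storage lipids and phospholipids, rose in both lines. It stood at 12.5, 12 and 11.6 RPKM with shCXCR7 in LNCaP-EnzR cells, against 9.23, 9.26 and 8.66 RPKM with LKO (0.40, standard error 0.07, adjusted p = 0.00228). For C4-2B-EnzR cells the values were 16.3, 17.4 and 18.4 RPKM with shCXCR7, against 11.6, 11.8 and 11.1 RPKM with LKO (0.59, standard error 0.07, adjusted p = 0.00123). Among 13 tested acyl-CoA synthetases and other genes of glycerolipid synthesis, 2 rose and 3 fell for LNCaP-EnzR (3 and 3 without shCXCR7 replicate 3). For C4-2B-EnzR cells 4 rose and 2 fell. All genes gave 16.8% and 19.1% for LNCaP-EnzR and 19.4% and 19.5% for C4-2B-EnzR cells. ACSL1, which activates long-chain fatty acids, stood at 49.7, 50.5 and 42.6 RPKM with shCXCR7 in LNCaP-EnzR cells, against 26.0, 24.4 and 23.1 RPKM with LKO, and at 80.3, 83.3 and 88.2 RPKM with shCXCR7 in C4-2B-EnzR cells, against 38.5, 42.9 and 42.9 RPKM with LKO. Its log2 fold change was 0.95 (adjusted p = 8.70e-05) and 1.02 (adjusted p = 2.02e-04). AGPAT3 and AGPAT2, acyltransferases that make phosphatidate, fell by 0.51 and 0.55 for LNCaP-EnzR and by 0.79 and 0.26 for C4-2B-EnzR cells.

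Of the exporters, ABCG1, which passes cholesterol to lipoproteins, stood at 14.5, 14.9 and 12.4 RPKM with shCXCR7 in LNCaP-EnzR cells, against 18.2, 18.8 and 17.1 RPKM with LKO, and fell (-0.37, standard error 0.09, adjusted p = 0.00965). In C4-2B-EnzR cells it was -0.31 (standard error 0.12, adjusted p = 0.0768). ABCA1, which loads lipid-poor apolipoprotein, was near the detection limit. It stood at 0.549, 0.554 and 1.35 RPKM with shCXCR7 in LNCaP-EnzR cells, against 0.398, 0.367 and 0.358 RPKM with LKO, and the high value was that of shCXCR7 replicate 3, in which low genes read high. Its change of 0.69 on the log2 scale (standard error 0.35, adjusted p = 0.157) was 0.38 (adjusted p = 0.0448) without that library, and since ABCA1 met the limit on low values only through these libraries, neither value is an independent test. In C4-2B-EnzR cells ABCA1 stood at 0.270, 0.225 and 0.207 RPKM with shCXCR7, against 0.299, 0.246 and 0.265 RPKM with LKO.

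Among 7 other tested genes of sterol efflux and the LXR receptors, 3 rose in each line. Of all genes 16.8% rose for LNCaP-EnzR and 19.4% for C4-2B-EnzR cells. The 7 genes had medians of 0.17 for LNCaP-EnzR and 0.24 for C4-2B-EnzR cells. NR1H2, which encodes LXR beta, stood at 33.8, 36.0 and 30.5 RPKM with shCXCR7 in LNCaP-EnzR cells, against 18.3, 20.3 and 18.2 RPKM with LKO. Its C4-2B-EnzR levels were 41.1, 38.9 and 38.7 RPKM with shCXCR7, against 23.7, 21.6 and 21.7 RPKM with LKO. It rose by 0.81 (standard error 0.08, adjusted p = 1.58e-04) and by 0.82 (standard error 0.06, adjusted p = 2.88e-04). Of 12 tested genes of sterol uptake, trafficking and esterification, 5 rose and 3 fell for LNCaP-EnzR (6 and 4 without shCXCR7 replicate 3). For C4-2B-EnzR cells 4 rose and 5 fell. The shares of all genes were 16.8% and 19.1% for LNCaP-EnzR and 19.4% and 19.5% for C4-2B-EnzR cells. LIPA, the lysosomal lipase that frees cholesterol from its esters, rose by 0.82 (adjusted p = 2.01e-04) and 1.08 (adjusted p = 1.29e-04), SCARB1, a lipoprotein receptor, by 0.74 and 0.41, and NPC2, a lysosomal sterol carrier, by 0.40 and 0.58. OSBPL2, an oxysterol-binding protein, fell in both lines (-0.38 with adjusted p = 0.00270 for LNCaP-EnzR and -0.31 with adjusted p = 0.0115 for C4-2B-EnzR cells).

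Set side by side, 3 members rose in both lines (MVK, ACSS2 and LPIN1, 8.57% of members) and 6 fell in both (SREBF2, FADS1, ACACA, HMGCS1, CYP51A1 and EBP, 17.1%), against 9.59% and 10.7% of all genes tested. A further 11 were called for LNCaP-EnzR and 7 for C4-2B-EnzR cells alone, and 7 in neither. These counts include LNCaP-EnzR shCXCR7 replicate 3. Without it IDI1, TM7SF2 and ELOVL5 also rose in both lines, while the members that fell in both were the same. The share of all genes called in both lines was not counted without that library. The fold changes had the same sign in 27 of the 35, a share that was not counted over all genes. Across members the fold changes of the lines had a Pearson r of 0.64 and a Spearman rho of 0.58, against 0.55 and 0.56 across all genes tested. These correlations are a description across genes, which are not independent replicates.

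**Figure D4:**
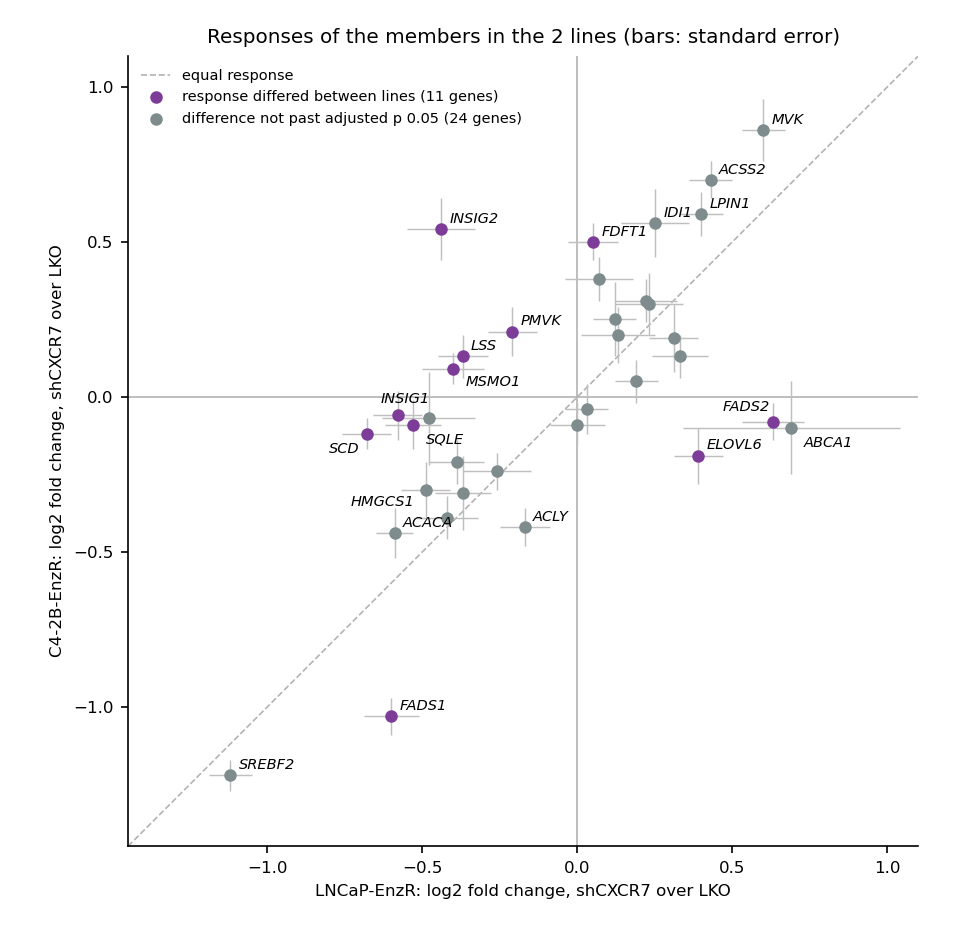
Log2 fold change, shCXCR7 over LKO, in C4-2B-EnzR (vertical axis) against LNCaP-EnzR cells (horizontal axis) for the 35 members, with standard errors and a dashed line of equal response. The 11 members whose response differed between the lines at an adjusted p under 0.05 (purple) include INSIG2, upper left, and FADS2, right, while SREBF2, lower left, lies near the dashed line.

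The difference in response between the lines was tested itself, as the response of C4-2B-EnzR minus that of LNCaP-EnzR cells. It was above 0 in 8 members (22.9%, against 5.76% of all genes) and below 0 in 3 (8.57%, against 5.96%) at an adjusted p under 0.05, or in 6 and 6 by quantile normalization. The 8 were INSIG2 (0.98), SCD (0.57), INSIG1 (0.52), LSS (0.50), MSMO1 (0.49), FDFT1 (0.45), SQLE (0.44) and PMVK (0.42), of which FDFT1, SQLE, LSS and MSMO1 make sterols from squalene synthase onward. The 3 were FADS2 (-0.70), ELOVL6 (-0.58) and FADS1 (-0.44), so of the 5 members of elongation and desaturation 3 were below 0 and SCD was above. INSIG2 and FADS2 also passed at a difference of 1.5-fold or more (and ELOVL6 without LNCaP-EnzR shCXCR7 replicate 3), as did 2.78% of all genes above 0 and 3.92% below. Without LNCaP-EnzR shCXCR7 replicate 3, 6 were above and 4 below 0 (17.1% and 11.4%, against 5.36% and 6.15% of all genes). PMVK and SQLE were lost (adjusted p = 0.0550 and 0.0681) and ACLY was gained (-0.31, adjusted p = 0.0386). PMVK was lost without any 1 of 8 of the 12 libraries (adjusted p up to 0.0855) and SQLE without any 1 of 9 (up to 0.0964). MSMO1 was lost without LNCaP-EnzR LKO 1 or 3 or C4-2B-EnzR shCXCR7 1 or 2 (adjusted p up to 0.0640), and FADS1 without LNCaP-EnzR LKO 3, C4-2B-EnzR LKO 2 or C4-2B-EnzR shCXCR7 1 or 2 (up to 0.0643). INSIG2, SCD, INSIG1, LSS, FDFT1, FADS2 and ELOVL6 passed whichever library was left out.

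In LKO libraries, rescaled together, 14 members were higher in C4-2B-EnzR than in LNCaP-EnzR cells (against 31.7% of all genes) and 8 were lower (22.9%, against 30.6%). At 1.5-fold or more these were 7 and 6 (20.0% and 17.1%, against 19.9% and 18.3% of all genes), so the control cells differed in these genes about as often as in all genes. FADS1 stood at 40.9, 42.3 and 40.7 RPKM in C4-2B-EnzR, against 11, 11.2 and 11 RPKM in LNCaP-EnzR LKO libraries (1.87, standard error 0.05, adjusted p = 9.22e-07). FADS2 stood at 256.1, 236.1 and 244.8 RPKM in C4-2B-EnzR, against 81.6, 75.1 and 77.8 RPKM in LNCaP-EnzR LKO libraries (1.65, standard error 0.06, adjusted p = 2.66e-06). Both desaturases were thus over 2-fold higher in C4-2B-EnzR cells, as was INSIG1 (1.03, standard error 0.07, adjusted p = 3.07e-05).

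Levels that were lower by over 2-fold in C4-2B-EnzR controls were those of ELOVL6, INSIG2 and ABCG1. ELOVL6 stood at 6.93, 7.23 and 8.25 RPKM in C4-2B-EnzR, against 26.1, 23.7 and 25.5 RPKM in LNCaP-EnzR LKO libraries (-1.72, standard error 0.08, adjusted p = 8.39e-06). INSIG2 stood at 10.8, 12.8 and 10.2 RPKM in C4-2B-EnzR, against 33.9, 32.2 and 38.0 RPKM in LNCaP-EnzR LKO libraries (-1.60, standard error 0.10, adjusted p = 2.61e-05). ABCG1 was lower by 1.31 (standard error 0.11). SREBF2, the gene with the largest fall after knockdown in both lines, was higher in C4-2B-EnzR controls (45.6, 42.5 and 41.5 RPKM) than in LNCaP-EnzR controls (25.7, 23.8 and 23.7 RPKM; 0.82, standard error 0.06, adjusted p = 5.59e-05). LSS (0.89), MVK (0.61) and DHCR7 (0.61) were higher and PMVK (-0.78), ELOVL5 (-0.68) and MSMO1 (-0.60) lower by 1.5-fold or more. FASN, ACLY and ACACA, which carry the bulk route to palmitate, did not pass the test between the control groups (0.04, 0.02 and -0.04), nor did LPIN1 (0.05) or HMGCS1 (0.01). The calls of ACSS2 (0.23, adjusted p = 0.0184) and STARD4 (-0.46, adjusted p = 0.0189) were lost without LNCaP-EnzR LKO 3 or C4-2B-EnzR LKO 2 and without LNCaP-EnzR LKO 1 or LKO 3 (adjusted p up to 0.0707 and 0.0628).

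**Figure D5:**
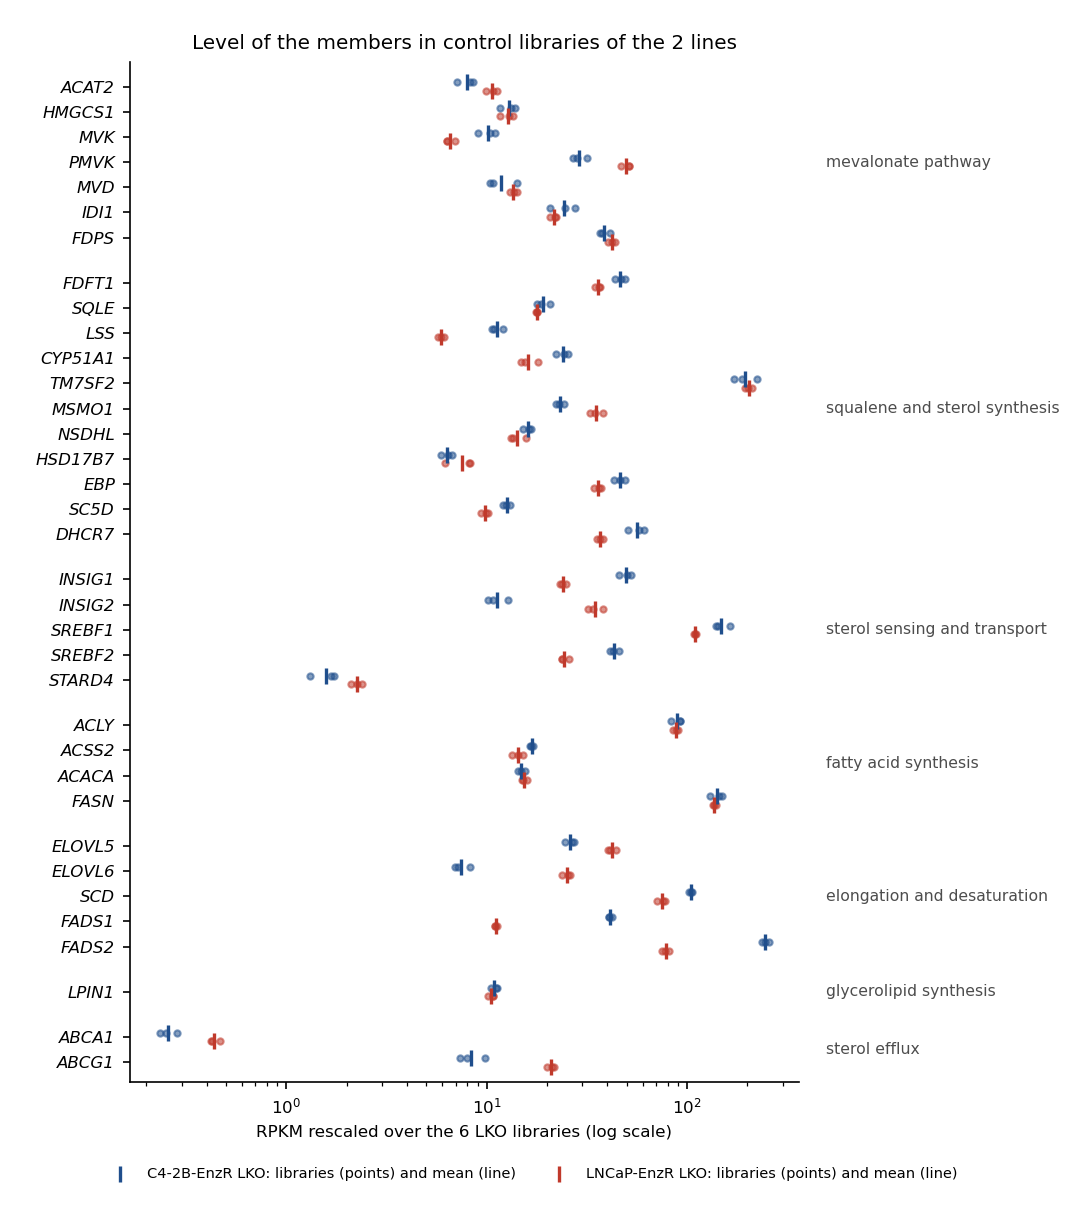
RPKM rescaled over the 6 LKO libraries (log axis) for the 35 members, in C4-2B-EnzR (blue, upper) and LNCaP-EnzR cells (red, lower), grouped by role, with points for libraries and a line for the mean. FADS2 leads in C4-2B-EnzR (mean 245.7 RPKM) and TM7SF2 in LNCaP-EnzR controls (mean 202.9 RPKM), and the widest gaps are those of FADS1, FADS2, ELOVL6, INSIG2 and ABCG1.

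Per kilobase, the order of levels in C4-2B-EnzR controls ran from FADS2 (245.7 ± 10.0 RPKM, SD, n = 3) through TM7SF2 (194.4 ± 25.8), SREBF1 (148.7 ± 12.6), FASN (141.2 ± 10.0) and SCD (104.5 ± 2.24) to STARD4 (1.57 ± 0.231) and ABCA1 (0.257 ± 0.0265). In LNCaP-EnzR controls it ran from TM7SF2 (202.9 ± 8.08) through FASN (137.2 ± 2.56), SREBF1 (109.6 ± 1.38), ACLY (88.0 ± 2.20) and FADS2 (78.2 ± 3.30) to STARD4 (2.25 ± 0.146) and ABCA1 (0.436 ± 0.0250). SREBF1 and FASN lay within their spread of each other in C4-2B-EnzR, and FADS2 and SCD (74.8 ± 3.17) in LNCaP-EnzR controls. In both lines SREBF1 mRNA exceeded SREBF2 mRNA per kilobase in the control cells.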

How the data were processed

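The authors made NEBNext Ultra libraries, sequenced single-end reads, aligned them with STAR to hg38 and deposited 1 table of RPKM per gene from an in-house script. For the annotation and the strand setting, the sources used here give nothing. Of 26475 lines, 32 hold no value and 4 repeat a symbol, leaving 26439 genes. Each RPKM is divided by the library total. Read back from the RPKM steps, this total was 3.743 for LNCaP-EnzR shCXCR7 replicate 3, relative to LNCaP-EnzR LKO replicate 1, against 1.0 to 1.478 for the other libraries. Its reads in genes (9773671) lay within the range of the others (6380395 to 9831807), and where the further reads lay was not tested. Values were therefore rescaled by median-of-ratios factors within each line (within the 6 LKO libraries for the comparison of lines). In LNCaP-EnzR cells this moved the median log2 fold change of all genes to 0.03, against -0.28 as deposited. Whole reads were recovered from the steps of RPKM for 25028 of 25028 genes above 0 (within 0.02 reads) and used for depth and voom only.

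Here log2(rescaled RPKM + 0.25), which understates changes of low genes, was fitted with limma 3.58.1 in R 4.3.3 (empirical Bayes, variance trend). The 14202 genes tested reached 0.5 RPKM in 3 or more libraries, with Benjamini-Hochberg adjustment over all of them and a threshold of 0.05. The scripts were tested on simulated data. Members given by library were those past the threshold, 1.5-fold or more and without overlap in at least 1 line, and others given by library were chosen after their values were seen. Other lists name up to 4 genes. Members and lists were chosen with earlier results of these data known. Alternatives were other scalings, pseudocounts, filters, voom, no variance trend, 1 joint fit, a replicate block, subtraction of 0.234 RPKM of background from LNCaP-EnzR shCXCR7 replicate 3, stricter thresholds and leaving out each library. Coordinates are from GENCODE 44, sequences from RefSeq, and figures were made in Python 3.11.15 with matplotlib 3.10.9.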

Additional observations from a re-analysis of the deposited data

Results flagged for a closer look

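For 11 members the response to CXCR7 knockdown differed between the lines in the test of the difference itself (limma interaction term, adjusted p under 0.05), given here as the response of C4-2B-EnzR minus that of LNCaP-EnzR cells on the log2 scale. Above 0 were INSIG2 (0.98), SCD (0.57), INSIG1 (0.52), LSS (0.50), MSMO1 (0.49), FDFT1 (0.45), SQLE (0.44) and PMVK (0.42). Below 0 were FADS2 (-0.70), ELOVL6 (-0.58) and FADS1 (-0.44). PMVK was called in neither line by itself, at 0.21 in C4-2B-EnzR and -0.21 in LNCaP-EnzR cells. The CXCR7 mRNA itself fell further in C4-2B-EnzR (-1.97) than in LNCaP-EnzR cells (-1.25; difference -0.72, adjusted p = 0.00910), and the part of this in the differences was not tested.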

How the results depend on the processing

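Member changes past the threshold kept their direction under the alternatives run, except that on RPKM as deposited the rises of ACAT2 and SREBF1 in LNCaP-EnzR cells turned to -0.01 each. On those values LNCaP-EnzR shCXCR7 replicate 3 has a lower total RPKM than the other libraries, and of 21 members called in LNCaP-EnzR cells and 11 called for the difference between lines 0 and 0 passed (limma; at an unadjusted p under 0.05, 2 and 1; voom on recovered reads, 23 and 11; 275 and 364 of all genes were called higher and lower in LNCaP-EnzR cells). At 1.5-fold or more, 6 members passed in LNCaP-EnzR, 5 of 17 in C4-2B-EnzR cells, 13 of 22 between the controls and 2 of 11 for the difference. At 2-fold and an adjusted p under 0.001 these were 1, 2, 6 and 0, and in C4-2B-EnzR cells 265 genes fell by this rule, against 0 to 133 with 1 library left out (0 without shCXCR7 replicate 1 or 2). Leaving out 1 library at a time gave 17 to 26 members in LNCaP-EnzR, 13 to 20 in C4-2B-EnzR cells, 20 to 25 between the controls and 7 to 11 for the difference, the 7 without LNCaP-EnzR LKO replicate 3 or C4-2B-EnzR shCXCR7 replicate 1 or 2. Replicate numbers did not pair the samples (correlations of same-numbered deviations from -0.10 to 0.04), and a replicate block gave 20, 12, 22 and 7 members. Without a filter on low values the median of all genes moved to 0.33 in LNCaP-EnzR and to -0.29 for the difference. Chosen after the data were seen, factors from genes at 10 RPKM or more gave 25 members in LNCaP-EnzR, 12 higher and 13 lower, and 27 with the background also subtracted, 13 higher and 14 lower, and for the difference 7 and 5 by either. Low depth limits ABCA1 (25 to 253 reads) and STARD4 (85 to 162 reads).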

Other observations

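Of 22 tested genes of fatty acid oxidation, 4 rose and 7 fell in LNCaP-EnzR cells (8 and 6 without shCXCR7 replicate 3) and 11 rose and 7 fell in C4-2B-EnzR cells, at an adjusted p under 0.05 from limma. Of all genes 16.8% rose and 19.1% fell in LNCaP-EnzR and 19.4% rose and 19.5% fell in C4-2B-EnzR cells. ACAA1, the peroxisomal thiolase, stood at 13.9, 13.1 and 14.3 RPKM with shCXCR7 in LNCaP-EnzR cells, against 40.3, 39.2 and 42.6 RPKM with LKO, and at 9.51, 9.04 and 9.53 RPKM with shCXCR7 in C4-2B-EnzR cells, against 25.9, 21.0 and 22.9 RPKM with LKO (-1.55 and -1.28). CPT1A, which carries fatty acids to the mitochondrion, fell by 0.79 in LNCaP-EnzR and by 0.52 in C4-2B-EnzR cells. HADH, a dehydrogenase of mitochondrial oxidation, rose by 0.49 and 0.94, so members of this list changed in both directions in both lines.

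Of 5 tested bile acid and oxysterol enzymes, 2 rose in LNCaP-EnzR cells (2 rose and 1 fell without shCXCR7 replicate 3), and 2 rose and 1 fell in C4-2B-EnzR cells. Shares over all genes were 16.8% and 19.1% in LNCaP-EnzR (20.2% and 20.8% without that library) and 19.4% and 19.5% in C4-2B-EnzR cells. CYP7A1, the rate-limiting enzyme of bile acid synthesis in liver, stood at 3.10, 2.69 and 3.06 RPKM with shCXCR7 in LNCaP-EnzR cells, against 0, 0.0216 and 0.0284 RPKM with LKO, and at 9.06, 7.95 and 9.70 RPKM with shCXCR7 in C4-2B-EnzR cells, against 0.861, 0.540 and 0.939 RPKM with LKO. CYP39A1, an oxysterol hydroxylase, stood at 3.99, 3.90 and 3.90 RPKM with shCXCR7 in LNCaP-EnzR cells, against 1.63, 1.17 and 1.17 RPKM with LKO, and at 2.56, 2.22 and 2.81 RPKM with shCXCR7 in C4-2B-EnzR cells, against 0.405, 0.381 and 0.780 RPKM with LKO. The log2 fold changes, with 0.25 RPKM added, were 3.58 for CYP7A1 and 1.42 for CYP39A1 in LNCaP-EnzR cells, and 3.17 for CYP7A1 and 1.88 for CYP39A1 in C4-2B-EnzR cells. Of the hepatocyte markers 2 of 4 were tested, with summed deposited RPKM of 1.91 to 3.19 with shCXCR7 and 0.729 to 1.24 with LKO in LNCaP-EnzR and of 1.11 to 1.76 with shCXCR7 and 1.26 to 1.62 with LKO in C4-2B-EnzR cells, and their part in these changes was not tested.

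Of 13 tested genes of the isoprenoid branch, 2 rose and 2 fell in each line (4 and 2 in LNCaP-EnzR cells without shCXCR7 replicate 3). Across all genes the shares were 16.8% and 19.1% in LNCaP-EnzR and 19.4% and 19.5% in C4-2B-EnzR cells. RCE1 and ZMPSTE24, proteases that process prenylated proteins, changed in opposite directions in both lines, by 0.61 and -0.64 in LNCaP-EnzR and by 0.39 and -0.43 in C4-2B-EnzR cells.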
